A study of Mus musculus with 6 samples.

Results

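The 7 genes described here encode the inhibitors of cyclin-dependent kinases, the proteins that hold the kinases of the cell cycle in check. They were picked by gene symbol from a table of 18158 features measured in mouse ventricle. All 7 were in the table: Cdkn1a, Cdkn1b and Cdkn1c of the Cip/Kip family, and Cdkn2a, Cdkn2b, Cdkn2c and Cdkn2d of the INK4 family. Ventricle RNA was sequenced from 6 outbred mice of the CD1 stock at 3 months of age. The 3 vehicle mice received PBS, and the 3 Paro/Neo mice received paromomycin with neomycin, both aminoglycoside antibiotics, at 150 mg/kg 2 times a day into the peritoneum. Injections ran over 14 days in both groups. Each library is the ventricle tissue of 1 mouse, with muscle, vessel, fibroblast and immune cells mixed, so a lower level in fewer cells and less RNA per cell cannot be told apart.

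A cell divides when D-type cyclins with Cdk4 or Cdk6, and later cyclins E and A with Cdk2, phosphorylate the retinoblastoma protein and its relatives and release E2F factors. INK4 proteins bind Cdk4 and Cdk6 and keep them from their cyclins. Cip/Kip proteins bind whole complexes of cyclin and kinase, Cdk2 complexes above all. Most adult cardiomyocytes have left the cell cycle, and the transcription factor Meis1 is known to activate Cdkn1a, Cdkn2a and Cdkn2b in the postnatal mouse heart. The study's design text asks how expression differs where the treatment suppresses Meis1 and Hoxb13 activity, a question that these inhibitors bear on as known targets of Meis1. Neither factor's activity is part of these measurements.

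The stretches of promoter sequence shown next are those that hold a letter match to a factor of that question or to p53, the best known activator of Cdkn1a. RefSeq windows on GRCm38.p6, reaching from 250 bases before a start site to 50 bases after it, were found for 6 of the 7 genes, 9 windows in all. Each was searched on both strands for TGACAG, the core bound by MEIS factors, and for CATGNNNNNNCATG, the paired cores of a p53 element, which reads the same on both strands. The first was in 2 of the 9 windows and the second in 1, against 19.2% and 0.712% of all 32851 windows of that length. The capitals mark the match, and each stretch is written 5′ to 3′ on the strand of its gene.
Cdkn1a, p53 paired cores, chr17:29090901-29090974, + strand: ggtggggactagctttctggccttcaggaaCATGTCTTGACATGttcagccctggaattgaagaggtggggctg
Cdkn2a, upstream of 2 starts, MEIS core, chr4:89294806-89294869, - strand: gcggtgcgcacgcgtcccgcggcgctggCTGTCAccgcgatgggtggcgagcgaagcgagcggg
Cdkn2c, downstream of 2 starts, MEIS core, chr4:109665457-109665522, - strand: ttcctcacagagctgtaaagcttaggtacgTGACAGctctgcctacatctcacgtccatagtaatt
In Cdkn2a the core lies on the opposite strand, so it appears as CTGTCA. The windows at the other start of Cdkn2a and of Cdkn2c held 0 MEIS cores. For Cdkn1a the match lay in the window of the upstream start, and the window of the downstream start held 0. A match describes letters only and is not a measured binding site.

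The libraries were inferred to hold at least 9556387 to 15969980 assigned reads each. Values are in TPM, a unit scaled by gene length and to 1 total per library. Levels of different genes depend on the lengths behind them, which neither the labels nor the file header name. Those implied by the inferred reads were 0.576 (Cdkn2c) to 1.401 (Cdkn2b) times the annotated exon lengths, relative to the median gene. Paro/Neo replicate 1 stood apart, with the lowest mean correlation with the other libraries across genes, 0.9755 against 0.9814 to 0.9853. It held the lowest value of the 6 for 32.7% and the highest for 27.1% of tested genes. Markers of ventricular muscle fit the labelled tissue: Myl2, the ventricular light chain, was at 51694 to 69835 TPM. Myl7, its atrial counterpart, ran from 25.7 TPM in vehicle replicate 1 to 221 TPM in Paro/Neo replicate 1. The atrial markers Myl4 and Sln had the same 2 hearts at their extremes, at 22.7 and 214 TPM for Myl4. Nppa, another atrial marker, was lowest in Paro/Neo replicate 1, at 240 TPM. These atrial markers thus differed between hearts, and not all in 1 direction. The part of atrial tissue in these values was not tested. Lymphocyte markers were close to absent, with 6 genes summing to 0.855 to 1.66 TPM in vehicle and 2.47 to 3.84 TPM in Paro/Neo hearts. Changes were tested with limma on log2(TPM + 1) over 12409 genes that reached 1 TPM in 3 or more libraries. On that scale the change of a low gene comes out smaller than its fold in TPM.

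None of the inhibitor genes passed the test. By limma, 0 of the 6 tested inhibitor genes had a Benjamini-Hochberg adjusted p under 0.05 and 0 had an unadjusted p under 0.05. The same fit called 0.137% of all tested genes, and 7.61% were under 0.05 without adjustment. The adjusted p of the 6 genes ran from 0.831 for Cdkn2c to 0.989 for Cdkn1b, and limma-voom on the inferred reads called 0 as well. Values of the groups overlapped for all 7 genes, where 14.3% of all tested genes had groups that did not overlap. The seventh gene, Cdkn2a, was too low to test. All 6 fitted log2 changes lay below 0, with a median of -0.09, but 53.7% of all tested genes did so too, and leaving out single mice put up to 2 of the 6 above 0.

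**Figure D1:**
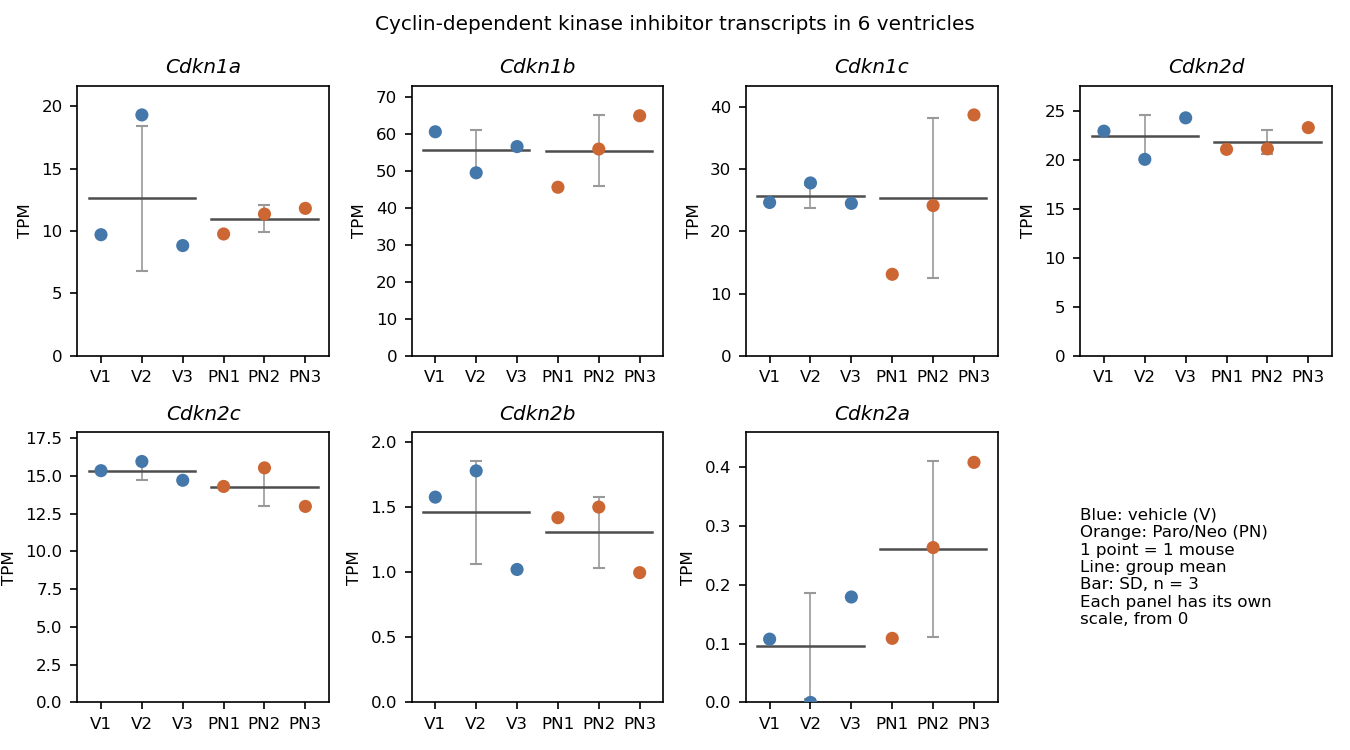
Level of each of the 7 inhibitor genes in TPM (vertical axis, from 0, own scale per panel) in each mouse (horizontal axis: V1 to V3 vehicle, PN1 to PN3 Paro/Neo replicates 1 to 3), with group means as lines and SD as bars (n = 3). The groups overlap in every panel; vehicle replicate 2 stands high for Cdkn1a at 19.3 TPM, and Cdkn1c runs from 13.1 to 38.7 TPM among Paro/Neo mice.

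The levels differed widely between members. Ordered by mean deposited TPM over the 6 hearts they ran from Cdkn1b at 55.5 TPM through Cdkn1c at 25.5, Cdkn2d at 22.2, Cdkn2c at 14.8, Cdkn1a at 11.8 and Cdkn2b at 1.38 to Cdkn2a at 0.178 TPM. Cdkn1b exceeded Cdkn1c in 6 of 6 hearts, by 1.68 to 3.48 times. Cdkn2d exceeded Cdkn2c in 6 of 6, by 1.26 to 1.80 times. In deposited TPM both of these steps, and those down to Cdkn2b and to Cdkn2a, were free of overlap between hearts. The neighbours Cdkn1c and Cdkn2d did not separate, since the order held in 5 of 6 hearts only and was turned in Paro/Neo replicate 1. Cdkn2c and Cdkn1a did not separate either, with Cdkn1a above Cdkn2c in vehicle replicate 2. With annotated exon lengths, an alternative chosen after seeing the data, the order of Cdkn1b and Cdkn1c held in 4 of 6 hearts only, at 0.93 to 1.93 times, so these genes did not separate. Cdkn1a and Cdkn2c then changed places in the order of means, with Cdkn1a above in 3 of 6 hearts. Cdkn2d stayed above Cdkn2c, and the steps down to Cdkn2b and Cdkn2a stayed free of overlap.

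The 3 Cip/Kip transcripts together supplied most of the inhibitor mRNA. They summed to 89.9 to 96.6 TPM in vehicle and to 68.5, 91.4 and 115.4 TPM in Paro/Neo hearts, and made up 64.9% to 75.4% of the total over the 7 genes (63.3% to 75.3% with annotated exon lengths). The INK4 transcripts summed to 37.8 to 40.3 TPM in vehicle and 36.96 to 38.5 TPM in Paro/Neo hearts. The Cip/Kip sum was spread more widely among treated hearts, with an SD of 23.5 TPM against 3.47 TPM in vehicle, and the INK4 sum was not, at 0.760 against 1.33 TPM.

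Cdkn1a encodes p21, the Cip/Kip protein that p53 induces after DNA damage. It spans 29090976 to 29100727 of chromosome 17 on the + strand (GENCODE M21 on GRCm38), and AC167363.2, an annotated transcript on the opposite strand, overlaps it. It measured 9.71, 19.3 and 8.83 TPM in vehicle replicates 1 to 3 and 9.76, 11.4 and 11.8 TPM in Paro/Neo replicates 1 to 3. Only vehicle replicate 2 was high, at 1.63 times the next highest heart and 2.18 times the lowest vehicle heart, and it drew the vehicle mean above the treated one. The means were 12.6 TPM ± 5.80 and 10.98 TPM ± 1.08 (SD, n = 3 each). The log2 change was -0.11 ± 0.26 (SE) with a 95% interval of -0.70 to 0.49 and an adjusted p of 0.930 by limma. Without vehicle replicate 2 the sign turned, to 0.22 with an interval of -0.11 to 0.55, so the direction of Cdkn1a was set by 1 control mouse.

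The high value of that control heart was not a matter of few reads. Cdkn1a had 268 inferred reads there and 88 to 161 in the other hearts, and counting alone would give a spread of 8.43% of the mean in vehicle against the 46.0% measured. Of 15 tested genes of the p53 target list, 3 had their highest value in vehicle replicate 2, as did 20.3% of all tested genes. Mdm2, the p53 ligase and a classical target, was at 42.6, 51.1 and 46.6 TPM in vehicle and 72.4, 48.8 and 45.5 TPM in Paro/Neo hearts. Proliferation markers were often highest in the same heart, 6 of 10 tested, among them the mitotic antigen gene Mki67 at 4.30 TPM against 1.59 to 3.57 TPM elsewhere. The part of these differences in the Cdkn1a value was not tested.

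Cdkn1b encodes p27, the Cip/Kip inhibitor associated with cells at rest, and had the highest mean of the members. It lies on chromosome 6 at 134920401 to 134925513 (+ strand). Its level was 60.6, 49.5 and 56.6 TPM in vehicle and 45.6, 55.9 and 64.9 TPM in Paro/Neo hearts. Both the lowest and the highest heart were treated ones, with the vehicle hearts between them. The means differed by less than either spread, 55.6 TPM ± 5.62 against 55.5 TPM ± 9.67, and the log2 change was -0.01 with a 95% interval of -0.35 to 0.33. On the TPM + 1 scale that interval spans folds from 0.786 to 1.25, from 669 to 1193 reads per heart.

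Cdkn1c encodes p57, a Cip/Kip inhibitor expressed from the maternal allele of an imprinted cluster. It lies on chromosome 7 at 143458339 to 143461050 (- strand), and the annotated antisense gene Gm44732 overlaps it. The strand setting of the authors' counting is not given in the sources used here, so reads of the pair could not be told apart if strand was ignored. The vehicle hearts were close together, at 24.7, 27.8 and 24.5 TPM. The Paro/Neo hearts were at 13.1, 24.2 and 38.7 TPM, far below, just below and above the vehicle range. The highest treated heart had 2.95 times the level of the lowest, where the vehicle hearts spanned 1.13 times. The group means nevertheless met, at 25.7 TPM ± 1.86 and 25.3 TPM ± 12.8, and the log2 change was -0.14 with a 95% interval of -0.88 to 0.60, the widest of the 6. It turned to 0.25 (-0.20 to 0.70) without Paro/Neo replicate 1, the library that stood apart, and was -0.50 without Paro/Neo replicate 3. Adjusted p stayed at 0.548 or above over all alternatives tried.

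On the log2 scale the SD of Cdkn1c was 0.75 among treated and 0.10 among vehicle hearts. These values lay at the 98.5th and the 36.0th percentile of all tested genes, whose medians were 0.18 and 0.13. Cdkn1a was the reverse case, with an SD of 0.57 in vehicle, at the 97.2nd percentile, and 0.13 in treated hearts, at the 33.9th. The other tested members lay between the 14.2nd and the 82.2nd percentile in either group. These percentiles describe 3 mice a group and were not tested. Counting alone would give Cdkn1c a spread of 5.80% of the mean in treated hearts, and 50.7% was measured.

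**Figure D2:**
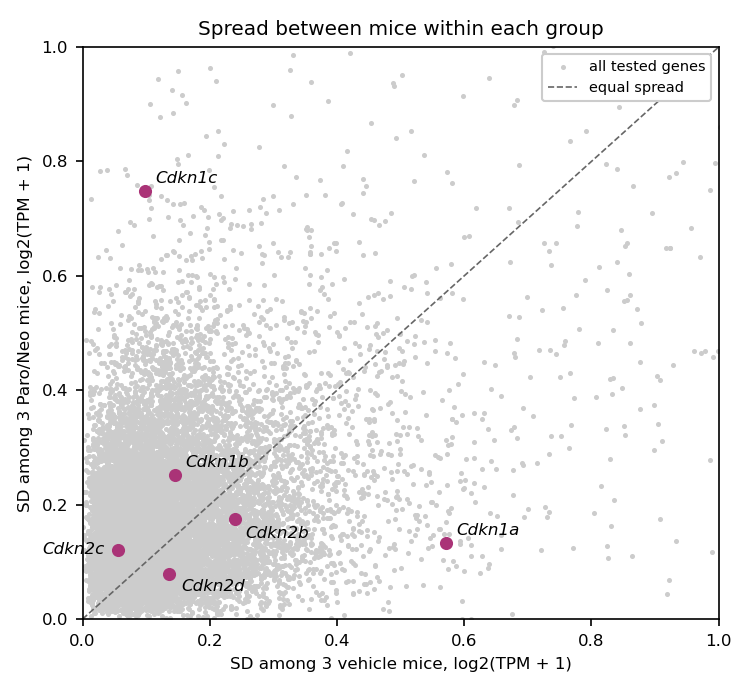
SD of log2(TPM + 1) among the 3 vehicle mice (horizontal axis) and among the 3 Paro/Neo mice (vertical axis) for each tested gene (grey) and the 6 tested inhibitor genes (purple); 165 of 12409 genes lie outside the axes. Cdkn1c sits high on the treated axis at 0.75 and low on the vehicle axis at 0.10, and Cdkn1a sits at 0.57 in vehicle and 0.13 in treated mice.

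Cdkn1c and Cdkn1b had the same hearts at their extremes: both were lowest in Paro/Neo replicate 1 and highest in Paro/Neo replicate 3. The same placement, looked up after it was seen in Cdkn1c, was found in 908 of 12409 tested genes, 7.32%. Among its 5 tested neighbours in the imprinted cluster, Kcnq1, Tssc4, Cd81 and Osbpl5 had the same order of the 3 treated hearts, as did 26.8% of all tested genes. Their range was narrower than that of Cdkn1c: Cd81, a tetraspanin gene, was at 311, 365 and 421 TPM, and Kcnq1, which encodes a potassium channel, at 9.43, 10.8 and 11.3 TPM. Nap1l4, a histone chaperone gene, had the opposite order, at 234, 178 and 168 TPM. Kcnq1ot1, the paternally expressed RNA that silences the cluster, was below the level for testing, at 0.338, 0.308 and 0.393 TPM in vehicle and 0.239, 0.281 and 0.274 TPM in Paro/Neo hearts, from 148 to 231 reads. Its treated values all lay below the vehicle ones, where 14.3% of all tested genes had groups that did not overlap. Tspan32, another gene of the cluster too low for the main fit, went the other way. It was at 0.334 to 0.669 TPM in vehicle and 0.736 to 1.22 TPM in Paro/Neo hearts, from 3 to 18 reads. Neither of these 2 genes was in the main fit. Of the 10 genes listed for the cluster 5 were tested there, and 0 passed by limma, adjusted or not. With no filter on low values 9 were tested. By limma 1 of them was higher and 0 lower at p under 0.05 without adjustment, and 0 passed with it.

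Cell type markers differed across the same hearts. In Paro/Neo replicates 1 to 3, the 6 endothelial markers summed to 377, 472 and 497 TPM, against 489 to 566 TPM in vehicle. The 6 smooth muscle and pericyte markers summed to 656, 392 and 353 TPM, against 406 to 501 TPM, with Rgs5, a pericyte gene, supplying most of that sum at 609.5, 309 and 240.02 TPM in the treated hearts. The other 5 went the opposite way, each in the order of Cdkn1c over the treated hearts, and summed to 46.2, 83.5 and 112.5 TPM against 71.0 to 136.3 TPM in vehicle. The 6 cardiomyocyte markers summed to 93590, 129100 and 126100 TPM, against 109700 to 116800 TPM in vehicle. The 6 fibroblast markers summed to 2319, 2456 and 2419 TPM, against 2431 to 2534 TPM in vehicle. Dcn supplied most of that sum, at 1726 to 1891 TPM over the 6 hearts. Singly, 4 of the 6 were lowest in Paro/Neo replicate 1 and 2 in Paro/Neo replicate 3, where 32.7% and 11.8% of all tested genes were. Col1a1 was at 8.08 TPM in Paro/Neo replicate 1 and 24.7 to 36.8 TPM in the other hearts. Of the listed markers in the table, 0 were at 0 in all 6 hearts. The part of cell makeup in the Cdkn1c values was not tested.

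For each tested member the 3 most alike genes were taken, by the root mean square difference of log2(TPM + 1) profiles centred over the 6 hearts. For Cdkn1c they were Rbpms, an RNA-binding protein gene, Gata6, a cardiac and vascular transcription factor gene, and Lmo1, with differences of 0.0556, 0.0908 and 0.0995 where Cdkn1c itself had an SD of 0.483. Rbpms was at 62.6 to 63.9 TPM in vehicle and at 32.1, 59.1 and 90.2 TPM in Paro/Neo hearts. Gata6 was at 35.5 to 42.7 TPM in vehicle and at 22.0, 39.5 and 54.0 TPM in treated hearts. Both thus showed the narrow vehicle values and the wide treated ones of Cdkn1c. For Cdkn1a the nearest were Fbxl15 (0.11), Oxld1 (0.124) and Cdc42ep5 (0.129), all high in vehicle replicate 2, with Oxld1 at 89.7 TPM there and 48.97 to 57.6 TPM elsewhere. For Cdkn1b they were Surf2, Slc35b3 and Cnnm3, and for Cdkn2d Atp2b1, Net1 and Nop14. For Cdkn2b they were Rhou, Fam115a and Jade3, and for Cdkn2c Mrpl21, Fam53c and Epdr1. With 6 hearts and 12409 genes some profiles come close to any given one, and nothing about shared control follows from these values.

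**Figure D3:**
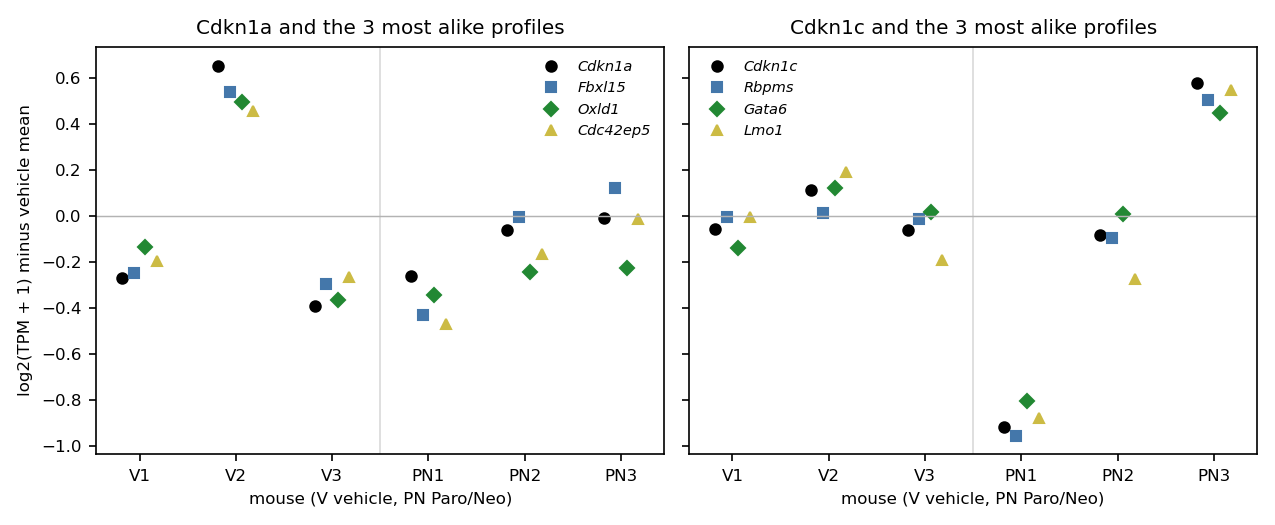
log2(TPM + 1) minus the vehicle mean (vertical axis) in each mouse (horizontal axis: V vehicle, PN Paro/Neo, replicates 1 to 3) for Cdkn1a (left) and Cdkn1c (right), each with its 3 most alike genes. Cdkn1a and its 3 companions are high in vehicle replicate 2 (0.66 for Cdkn1a), and Cdkn1c and its companions are lowest in Paro/Neo replicate 1 and highest in replicate 3 (-0.91, -0.08 and 0.58 for Cdkn1c).

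Cdkn2a is the gene of 2 unrelated proteins read from separate first exons, p16Ink4a, which binds Cdk4 and Cdk6, and p19Arf, which protects p53 from Mdm2. It lies on chromosome 4 at 89274471 to 89294653 (- strand), and the table has 1 row for both products. Which of them belongs to the upstream start, whose window holds the MEIS core, is not given here. The inferred reads were 1, 0 and 1 in vehicle and 1, 2 and 3 in Paro/Neo hearts. In TPM the values were 0.108, 0 and 0.179 in vehicle and 0.109, 0.263 and 0.408 in treated hearts. The 2 highest hearts were treated and the lowest was a vehicle heart, but the groups overlapped. Over the groups, 6 reads against 2 give a ratio of 2.82 per read of depth, with a 95% interval of 0.505 to 28.6 (from the exact Clopper-Pearson interval of the share of the 8 reads, covering counting error only). A count of 0 in vehicle replicate 2 allows a level of up to 0.385 TPM, which is above the values of the other hearts except Paro/Neo replicate 3. A difference in Cdkn2a was not detectable at this depth.

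Cdkn2b encodes p15, an INK4 protein induced by TGF-beta, and neighbours Cdkn2a on chromosome 4 at 89306299 to 89311039 (- strand). It was at 1.58, 1.78 and 1.02 TPM in vehicle and at 1.42, 1.5 and 0.998 TPM in Paro/Neo hearts, from 7 to 18 reads. Each group had 2 hearts near 1.5 TPM and 1 near 1 TPM. The log2 change was -0.09 with a 95% interval of -0.50 to 0.33 and an adjusted p of 0.916 by limma. The spread between vehicle mice, 26.9% of the mean, was no larger than the 29.3% that counting alone would give at these reads, so differences between mice could not be resolved. Mtap, the tested neighbour of the locus and an enzyme of methionine salvage, averaged 29.8 TPM ± 2.48 over the vehicle mice and 30.7 TPM ± 2.56 over the Paro/Neo mice (SD, n = 3 each).

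Cdkn2c encodes p18 and Cdkn2d encodes the INK4 protein p19, not to be confused with the Arf product of Cdkn2a. They lie on chromosome 4 at 109660876 to 109667189 and on chromosome 9 at 21288410 to 21291407, both on the - strand. Cdkn2c was at 15.3, 15.96 and 14.7 TPM in vehicle and 14.3, 15.5 and 12.98 TPM in Paro/Neo hearts. The lowest 2 hearts were treated, and the second Paro/Neo heart lay within the vehicle range. Its log2 change was -0.10 ± 0.11 (SE) with a 95% interval of -0.35 to 0.15, the narrowest of the 6, and it was the sole member whose sign held under every alternative tried. Cdkn2d was at 23.0, 20.1 and 24.3 TPM in vehicle and 21.1, 21.2 and 23.3 TPM in treated hearts, all 3 treated values within the vehicle range. Its log2 change was -0.03 with a 95% interval of -0.29 to 0.22. On the TPM + 1 scale these intervals span folds from 0.783 to 1.11 for Cdkn2c and from 0.817 to 1.17 for Cdkn2d.

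**Figure D4:**
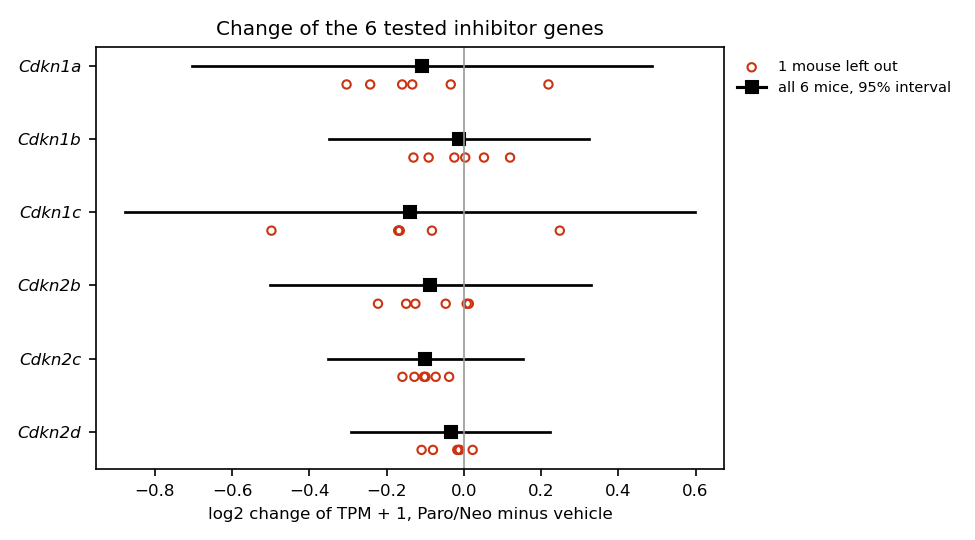
log2 change of TPM + 1, Paro/Neo minus vehicle (horizontal axis), for the 6 tested inhibitor genes (vertical axis), with 95% intervals from limma (black) and the estimates with 1 mouse left out (open red circles). All intervals include 0; they are widest for Cdkn1c (-0.88 to 0.60) and Cdkn1a (-0.70 to 0.49), and Cdkn2c alone has every circle below 0.

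The genes around the inhibitors were taken from 10 lists holding 120 different genes, of which 93 could be tested. None passed by limma over all genes (0 of 93). Without adjustment 10 were lower and 3 higher at p under 0.05, where 4.37% and 3.24% of all tested genes were, and limma-voom called 0 in these lists as well. The kinases and cyclins that INK4 proteins act on had lower means in treated hearts in 5 of 5 tested genes, with a median log2 change of -0.25 against -0.02 over all tested genes. Ccnd1, the most studied D cyclin gene, was at 33.4, 54.4 and 38.5 TPM in vehicle and 30.5, 29.1 and 25.1 TPM in Paro/Neo hearts. Ccnd3 was at 25.4, 28.9 and 23.2 TPM in vehicle and 15.8, 20.1 and 21.2 TPM in treated hearts, and Cdk4 at 72.0, 66.4 and 63.2 TPM and 50.8, 58.9 and 59.3 TPM. For these 3 genes the groups did not overlap, as for 21 of the 93 listed genes tested and 14.3% of all tested genes. The adjusted p was 0.503 or above by limma, and 3 of the 5 genes were under 0.05 without adjustment. That count was 1 without vehicle replicate 2, the highest heart in 4 of the 5 genes, and 1 without Paro/Neo replicate 3. Without vehicle replicate 2, and likewise without Paro/Neo replicate 2, 4 of the 5 genes had lower means and 1 a higher one. Ccnd2 and Cdk6 overlapped, with adjusted p of 0.933 and 0.846.

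Cip/Kip proteins act on Cdk2 and Cdk1 and their cyclins. Cdk2 was at 6.78 to 7.44 TPM in vehicle and 4.93 to 7.62 TPM in Paro/Neo hearts. Cyclin genes of S phase and mitosis were rarer, such as Ccna2 at 2.35 to 6.18 TPM and 1.48 to 3.56 TPM. Of 6 tested genes 5 had lower means in treated hearts, with a median log2 change of -0.26 and 0 past the threshold by limma, 0 also without adjustment. Vehicle replicate 2 was the highest heart in 4 of the 6, and without it the median was -0.15. With no filter on low values 7 genes of this list were tested. Of these 6 had a log2 change below 0, with a median of -0.38. By limma 1 was under 0.05 without adjustment and 0 passed with it. Proliferation markers had lower means in 9 of 10 tested genes, with a median of -0.26, and 0 passed. Ube2c, the ubiquitin carrier of the anaphase complex, was the 1 gene among them under 0.05 without adjustment (adjusted p 0.646), at 2.49 to 5.17 TPM in vehicle and 1.49 to 2.39 TPM in treated hearts. Without vehicle replicate 2, which had the highest value in 6 of these 10 genes, the median of the proliferation list was -0.14.

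Downstream of the kinases, Rb1 was at 22.5 to 23.5 TPM in vehicle and 24.4 to 24.7 TPM in Paro/Neo hearts, and the pocket protein gene Rbl2 at 19.2 to 21.9 TPM and 22.7 to 25.8 TPM. In both the groups stood apart by small steps, with adjusted p of 0.821 and 0.723 by limma. Groups without overlap were found in 14.3% of all tested genes. E2f4, which encodes the E2F factor that pairs with pocket proteins in resting cells, had 11.1 to 12.9 TPM in vehicle and 8.85 to 10.1 TPM in treated hearts (adjusted p 0.522). Its dimer partner gene Tfdp2 had 25.4 to 31.5 TPM and 34.7 to 46.9 TPM (adjusted p 0.522). Over the list, 6 of 9 tested genes had higher and 3 lower means.

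Of the genes that set the inhibitors' levels, Meis1 itself was at 10.6 to 12.1 TPM in vehicle and 10.5 to 12.6 TPM in Paro/Neo hearts, with an adjusted p of 0.991. Foxo3, a forkhead factor known to activate Cdkn1b, was at 4.69, 3.69 and 4.79 TPM in vehicle and 5.90, 6.83 and 6.73 TPM in treated hearts. Trp53, the p53 gene, was at 8.43, 10.9 and 8.82 TPM in vehicle and 5.76, 6.32 and 8.76 TPM in treated hearts. Both were under 0.05 without adjustment, and neither passed by limma, at adjusted p of 0.422 and 0.650. In the list of 23 such regulators 13 had higher and 10 lower means, with a median log2 change of 0.01 and 0 past the threshold.

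Among p53 targets other than Cdkn1a, 6 of 15 had higher and 9 lower means, and 0 passed. The smallest p belonged to Btg2, an antiproliferative gene, at 30.4, 34.2 and 23.0 TPM in vehicle and 18.5, 16.4 and 20.5 TPM in Paro/Neo hearts, and to Sesn1, a sestrin gene, at 117, 92.9 and 116 TPM and 164, 143 and 134 TPM. These 2 pointed opposite ways, with adjusted p of 0.343 and 0.454 by limma.

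The machinery that degrades p27 and p21 also showed 0 called genes of 12 tested. Skp2, the F-box protein that marks p27, was too low to test, at 0.573 to 1.13 TPM, and its cofactor gene Cks1b was at 13.1 to 14.5 TPM in vehicle and 12.8 to 14.3 TPM in treated hearts. Fbxw7, which encodes the F-box protein for cyclin E, was at 74.4 to 84.6 TPM and 64.8 to 69.3 TPM (adjusted p 0.590). Of 8 tested genes named for binding or inhibiting Cdk proteins 0 passed. Cdkn3 encodes a phosphatase of Cdk proteins and is no member of either inhibitor family. It was at 1.58, 1.51 and 1.84 TPM in vehicle and 0.80, 1.16 and 0.799 TPM in treated hearts. The groups did not overlap, as in 14.3% of all tested genes (limma adjusted p 0.503). These values rest on 7 to 10 reads per vehicle heart and 4 to 6 per treated heart. Without adjustment 2 of the 8 genes were under 0.05 by limma, and 0 by limma-voom on the inferred reads.

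**Figure D5:**
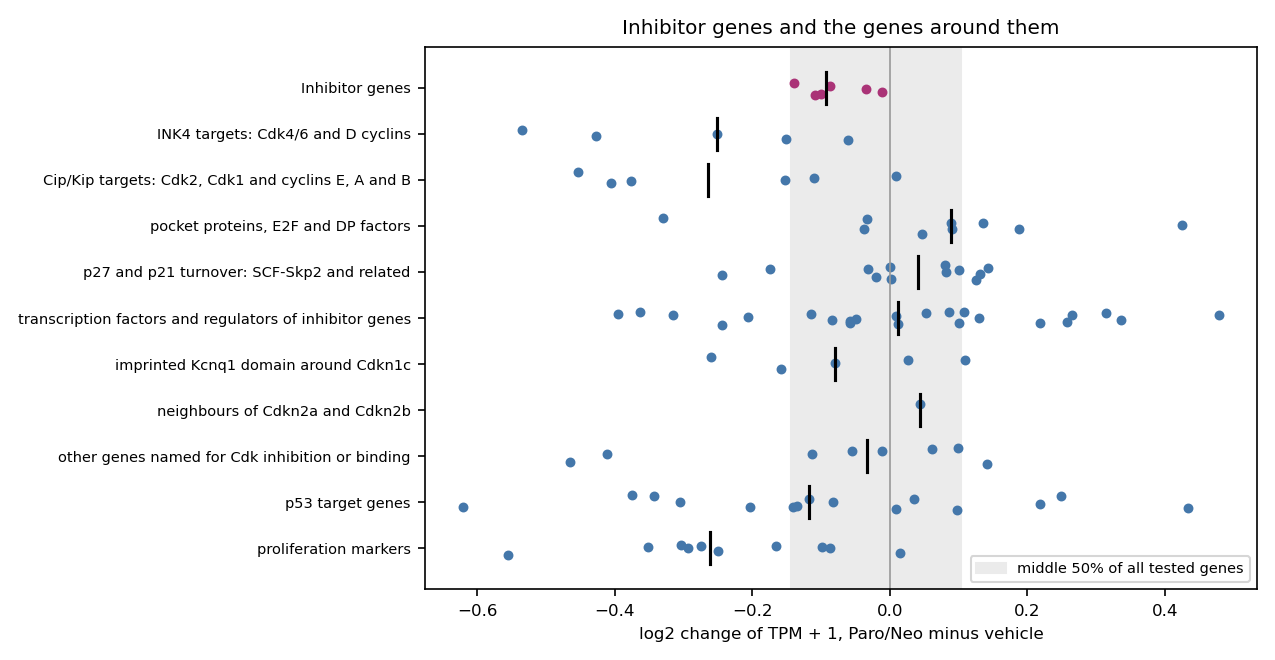
log2 change of TPM + 1, Paro/Neo minus vehicle (horizontal axis), for each tested gene (points) of the inhibitors (purple, top) and of the 10 lists around them (blue), with list medians as black bars and the middle 50% of all tested genes, -0.14 to 0.10, shaded. The 6 inhibitor genes lie between -0.14 and -0.01; no gene in the plot passed the test.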

How the data were processed

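Ventricle mRNA of 6 mice was used as 1 deposited table of TPM values, scaled by the authors to the same sum in each library. Stranded mRNA libraries were read at 76 bp, per the labels. The submitters' processing notes name STAR 2.5.3a, FastQC 0.11.5, edgeR, Subread and featureCounts and the build mm10, without roles. The annotation is not given in the sources used here, nor is the strand setting.

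Groups and replicate numbers follow the sample titles, and columns follow the sample descriptions. The descriptions number the Paro/Neo mice differently from the titles, and neither says that a number pairs mice. Values were transformed to log2(TPM + 1), and 12409 genes that reached 1 TPM in 3 or more libraries were fitted with limma 3.58.1 in R 4.3.3 (intensity trend, two-sided, Benjamini-Hochberg over all tested genes, threshold 0.05). For 3 against 3 mice the smallest exact permutation p is 0.10, so none is given. The fit was also run on simulated data, with normal noise of the same SD for a gene in both groups. That run does not cover unequal spreads, such as those of Cdkn1a and Cdkn1c. The labels give no batch, litter or cage.

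TPM keeps no depth. For each feature, however, the ratios between libraries were those of whole reads, within 0.001 of a read for 17574 of 17574 features above 0. The check is strict only where all 6 libraries were above 0, in 14330 features. Annotated exon lengths are the merged exons of GENCODE M21. The inferred reads are lower estimates, and intervals from them cover counting error only.

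The members and lists were chosen with earlier results of these data known. Named genes are the 7 members, listed genes with the smallest p or acted on by the members, and the 3 most alike profiles of each tested member, without clone names. Myl2, Myl7, Myl4, Sln, Nppa, Rgs5, Dcn and Col1a1 are markers named after their values were seen. The same holds for some listed genes outside that rule, such as Mki67, Mdm2, Kcnq1, Cd81, Nap1l4, Tspan32, Rb1 and Rbl2. Gene positions are from GENCODE M21 on GRCm38, which is mm10, and promoter windows from RefSeq on GRCm38.p6.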

Additional observations from a re-analysis of the deposited data

How the results depend on the processing

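The count of inhibitor genes past the threshold was 0 under all 14 alternatives, as was the count in each of the 10 lists. Signs were less firm. With mice left out 1 at a time, the log2 change ran from -0.30 to 0.22 for Cdkn1a, -0.13 to 0.12 for Cdkn1b, -0.50 to 0.25 for Cdkn1c, -0.22 to 0.0131 for Cdkn2b, -0.16 to -0.04 for Cdkn2c and -0.11 to 0.023 for Cdkn2d. With array weights, which gave Paro/Neo replicate 1 the lowest weight, it turned to 0.0202 for Cdkn1a, 0.0317 for Cdkn1b and 0.0649 for Cdkn1c, and with median-ratio rescaling to 0.0073 for Cdkn1b. Over these alternatives the adjusted p of the 6 genes stayed at 0.548 or above. With annotated exon lengths, added after seeing the data, the mean level over the 6 hearts moved from 55.5 to 41.0 for Cdkn1b, from 25.5 to 33.95 for Cdkn1c and from 14.8 to 8.53 for Cdkn2c, on a scale where the median gene keeps its TPM. Cdkn2b has no value under the filter of 5 TPM, which removes it.

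The number of all tested genes past the threshold, 17, was 6 without a filter, 26 with array weights, 9 without the intensity trend and 5 to 27 with 1 mouse left out. The lowest count, 5, came without vehicle replicate 1 and the highest without Paro/Neo replicate 2; it was 10 and 6 without vehicle replicates 2 and 3, and 6 and 9 without Paro/Neo replicates 1 and 3. With the replicate number as a block it was 27. Between the deviations of same-numbered mice from their group means the correlations were -0.05, -0.04 and -0.12. Mice with different numbers had -0.0519 to 0.099. Deviations within a group of 3 mice constrain each other, so these values cannot decide whether mice were paired. Depth limits Cdkn2a, with at most 3 reads per heart, and Cdkn2b, with at most 18.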
